A study of Sus scrofa with 16 samples.

Results

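The miR-143 and miR-145 cluster is a pair of neighbouring miRNA genes, and its products were followed here across the ovaries of 16 Large White sows. The members are every entry of the deposited count table named for ssc-miR-143 or ssc-miR-145. The entries were taken by name, and the cluster was chosen with earlier results of these data known. There are 3 such entries of 1940 in the table, namely ssc-miR-143-3p, ssc-miR-143-5p and ssc-miR-145-5p. The 2 miR-143 entries hold the same count in every library, so they were counted once as miR-143, and the arm that the reads came from cannot be told from the table. This left 2 measured members of 1247 entries with distinct counts. In the RefSeq annotation of Sscrofa11.1, a later assembly than the Sscrofa10.2 build of the authors, MIR143 and MIR145 lie next to each other on chromosome 2 with 0 genes between them. The span of IL17B, which encodes a cytokine of the interleukin-17 family, covers both there, and CSNK1A1, which encodes a casein kinase, is the next gene.

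Mature miRNAs guide the silencing machinery to partly matching messenger RNAs, whose translation and stability they lower. The miR-143 and miR-145 hairpins are cut from a shared primary transcript, which is switched on in smooth muscle by serum response factor with its partner myocardin. Both miRNAs are known for holding vascular and visceral smooth muscle cells in their contractile state and for being abundant in fibroblasts and other mesenchymal cells. In an ovary, smooth muscle lies in the vessel walls, in the stroma and in the theca externa around the follicles.

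Small RNA was sequenced from ovaries of Canadian Large White sows, with 1 library from each of 4 sows in a group. High (LH) and low (LL) fecundity ovaries of the luteal phase were collected on day 14 after estrus, when corpora lutea fill much of the ovary. High (FH) and low (FL) fecundity ovaries of the follicular phase were collected on day 20, when follicles grow before ovulation. The labels name no treatment or engineered allele for any group, and fecundity was assigned from litter records. Each sow was sampled in 1 phase only, the labels name no preparation batch, and phase and any batch processed with it cannot be told apart. The study's records also give the LL sows a lower parity (number of litters) than the LH sows, so fecundity and parity cannot be told apart by the luteal comparison. The fecundity difference averaged over the phases includes these sows and shares this limit. Library totals ran from 8998496 to 37194836 counts, and the lowest member count was 88971, so that sampling of reads adds little to the spread between sows. In whole tissue, a lower level from fewer cells of a type and from less RNA per cell cannot be told apart.

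miR-143 was among the most abundant miRNAs of every ovary. With entries of identical counts taken once, its share of a luteal library was 12.45%, 12.01%, 15.47% and 21.68% in LH1 to LH4. In the LL sows the share was 14.02%, 10.17%, 12.87% and 10.76%, in the order LL1 to LL4. The LL sows therefore lay within a narrow band near the lower end of the LH sows. In the follicular phase miR-143 took 24.53%, 36.09%, 22.99% and 19.28% of the counts in FH1 to FH4. It took 21.77%, 16.77%, 22.78% and 23.03% in FL1 to FL4. The follicular shares overlapped the luteal ones, since LH4 exceeded FH4 and FL2. miR-143 ranked 1 in LH4, FH1 to FH4, FL1, FL3 and FL4, and 2 or 3 in the other 8 libraries. In LH1, LH3 and all LL sows the top place went to miR-21, a miRNA induced in growing and injured tissue, and in LH2 and FL2 to miR-99a.

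miR-145 was the minor partner in read counts. Its share was 0.9336% to 1.999% of the LH and 0.6926% to 1.487% of the LL libraries. In the follicular phase it was 1.932% to 4.476% of the FH and 1.577% to 6.375% of the FL libraries. It ranked between 15 and 22 in the luteal libraries and between 3 and 13 in the follicular ones, so the rank ranges of the phases did not overlap. Together the pair took between 10.86% (LL2) and 40.57% (FH2) of the counts of a library. How efficiently each miRNA is captured in library preparation is not known, so a count of miR-145 set beside one of miR-143 compares libraries and not numbers of molecules.

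**Figure D1:**
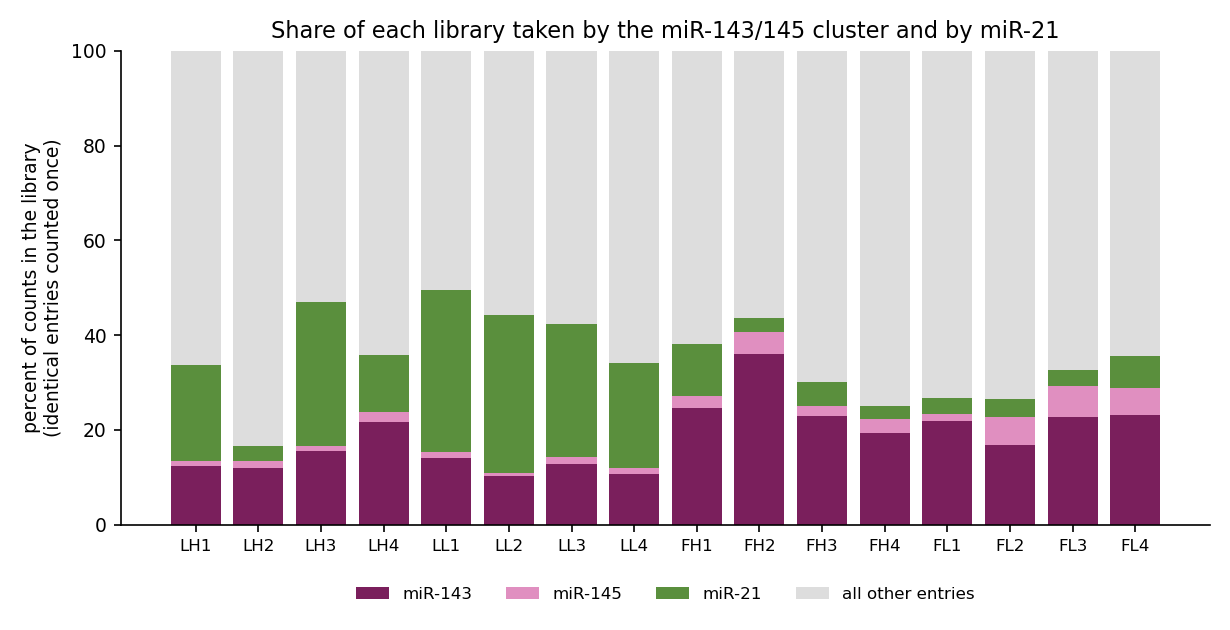
Share of the counts of each library (y axis, percent, entries with identical counts taken once) that fell to miR-143, miR-145, miR-21 and all other entries, with 1 bar per sow on the x axis. miR-143 and miR-145 together took 10.86% to 23.68% of the luteal libraries and 22.25% to 40.57% of the follicular ones, while miR-21 took 3.092% to 34.12% and 2.818% to 10.79%.

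Levels are given below in CPM (counts scaled to a common library size) after TMM normalization, which rescales libraries so that most entries do not shift between them. miR-143 measured 103710, 116102, 157503 and 194876 CPM in LH1 to LH4. In the LL sows it measured 70568, 67363, 75263 and 82187 CPM, in the order LL1 to LL4. In FH1 to FH4 it measured 209328, 395591, 229675 and 218279 CPM. In FL1 to FL4 it measured 241398, 125791, 242980 and 152126 CPM. FH2 stood far above the other FH sows, and the LL sows lay closest together, with a coefficient of variation of 8.719% against 29.02% to 33.68% in the other groups. The order of the group means was LL (73845 ± 6438), LH (143048 ± 41508), FL (190574 ± 60566) and FH (263218 ± 88640 CPM, SD, n = 4 each). In that order LL and LH did not overlap, whereas LH overlapped FL and FL overlapped FH.

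miR-145 measured 7778, 14618, 12071 and 17969 CPM in LH1 to LH4. It measured 7007, 4589, 8692 and 8956 CPM in LL1 to LL4. In the follicular phase it measured 23003, 49059, 19300 and 33677 CPM in FH1 to FH4, and 17484, 44648, 68002 and 38373 CPM in FL1 to FL4. LH1 lay among the LL sows, and FL1 was the only follicular sow inside the luteal range, just below LH4. The group means were LL (7311 ± 2010), LH (13109 ± 4297), FH (31260 ± 13340) and FL (42127 ± 20795 CPM, SD, n = 4 each). Neighbours in that order overlapped for LL with LH and for FH with FL, and did not overlap for LH with FH. The follicular groups thus stood in the opposite order for the members, with FH the highest for miR-143 and FL the highest for miR-145, and neither difference passed its test.

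**Figure D2:**
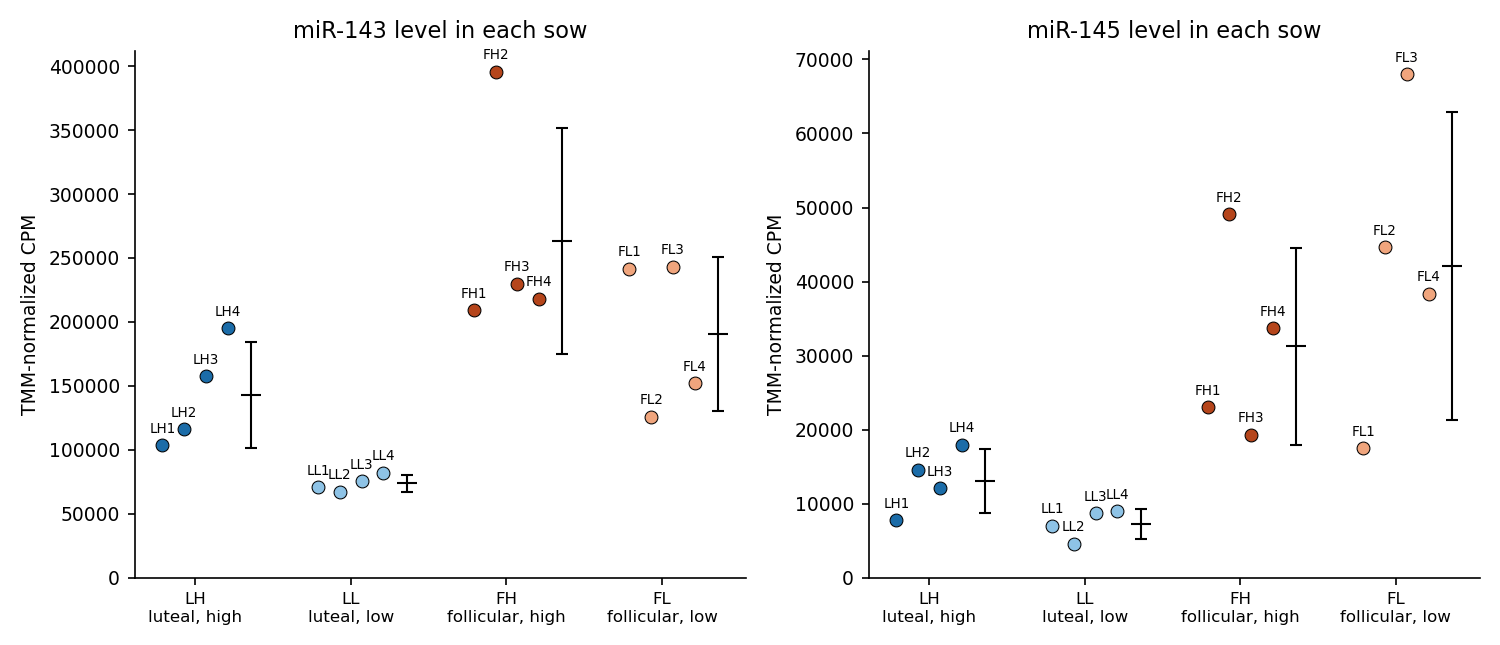
TMM-normalized CPM (y axis, linear from 0) of miR-143 on the left and of miR-145 on the right, with 1 labelled point per sow in the 4 groups on the x axis and bars for the mean ± SD (n = 4). The LL sows sit below all LH sows for miR-143, at 67363 to 82187 CPM, and the follicular sows sit above both luteal groups except FL2 and FL4 for miR-143 and FL1 for miR-145.

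The design crosses phase with fecundity, and the first question was how the cluster differed between the follicular and the luteal ovary. Both members were higher in the follicular phase, miR-145 more so by its estimate. Over the mean of both fecundity groups, miR-143 was 2.18-fold higher (log2 fold change 1.12, SE 0.198, adjusted p = 0.00222). miR-145 was 3.71-fold higher (log2 fold change 1.89, SE 0.294, adjusted p = 0.00222, edgeR quasi-likelihood test with Benjamini-Hochberg adjustment over 445 entries). The 3 entries of the members are thus among the 78 entries called in this comparison (17.5% of those tested) and among the 38 called higher (8.54%). miR-145 ranked 2 and miR-143 ranked 10 of 445 by P, while the median log2 fold change of all entries was -0.17.

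In the low fecundity sows the phases were well apart. miR-143 was 2.58-fold higher in FL than in LL (log2 fold change 1.37, SE 0.282, adjusted p = 0.00843 by edgeR). miR-145 was 5.76-fold higher (log2 fold change 2.53, SE 0.425, adjusted p = 0.00188 by edgeR). In this comparison 69 of 445 entries were called (15.5%), 42 of them higher in FL (9.44%). All 4 FL sows exceeded all 4 LL sows for each member, which was so for 52 of 445 entries (11.7%). The exact two-sided permutation test on log2(CPM + 1) gave p = 0.0286 for each member, the smallest that 4 sows against 4 allow.

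In the high fecundity sows the estimates were smaller and no entry passed the adjusted threshold. miR-143 was 1.84-fold higher in FH than in LH (log2 fold change 0.88, SE 0.279, edgeR adjusted p = 0.179). miR-145 was 2.38-fold higher (log2 fold change 1.25, SE 0.408, edgeR adjusted p = 0.181). Of 445 entries edgeR called 0 by adjusted p (0%), 70 had an unadjusted P under 0.05 (15.7%), and DESeq2 called 39 by its adjusted p. All 4 FH sows exceeded all 4 LH sows for both members, which was so in this direction for 21 of 445 entries (4.72%), and the exact two-sided permutation tests gave p = 0.0286. The study called a miRNA at a log2 fold change of 1 or more in either direction with P under 0.05 before adjustment. By that threshold miR-145 was called and miR-143, below the fold limit, was not, among 57 entries called in all (12.8%). FH2, the sow with the highest miR-143, raised these estimates: without it the log2 fold changes were 0.62 for miR-143 and 0.94 for miR-145.

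**Figure D3:**
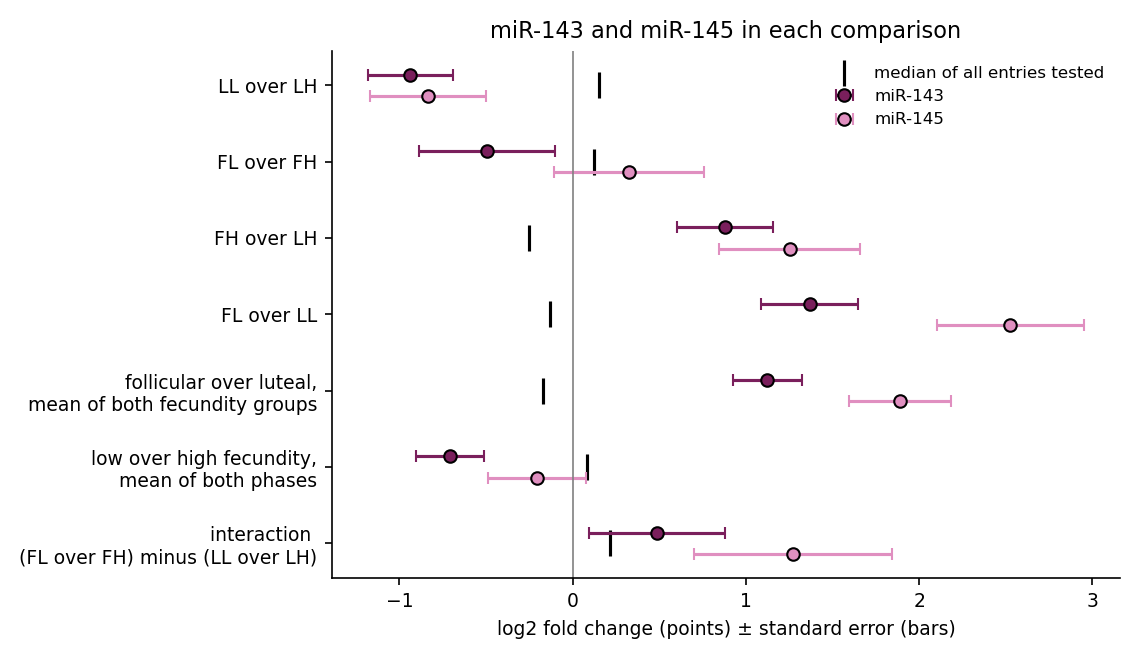
Log2 fold change (x axis, points) ± SE (bars) of miR-143 and miR-145 in each of 7 comparisons (y axis), from the edgeR fits, with a tick for the median of all entries tested. Both members sit right of the median in the phase comparisons, up to 2.53 for miR-145 in FL over LL, and miR-143 sits left of it at -0.94 in LL over LH and at -0.49 in FL over FH.

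The study asked how ovaries of high and low fecundity differ within a phase. In the luteal phase both members had lower estimates in the low fecundity sows, without a call. miR-143 in LL was 0.523 of its LH level (log2 fold change -0.94, SE 0.246, edgeR adjusted p = 0.170 over 362 entries). miR-145 in LL was 0.562 of its LH level (log2 fold change -0.83, SE 0.335, edgeR adjusted p = 0.253). Before adjustment P was under 0.05 for both. Here edgeR called 3 of 362 entries (0.829%), and the members were not among them or among the 47 entries past the threshold of the study (13%). All 4 LL sows lay below all 4 LH sows for miR-143, which was so for 24 of 445 entries (5.39%), and the exact two-sided permutation test gave p = 0.0286 (0.0457 adjusted over the 8 tests of levels). For miR-145 the groups overlapped, with 2 of 4 LL sows below the lowest LH sow (exact two-sided permutation test, p = 0.0857).

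The luteal estimate for miR-143 moved with the scaling of the libraries. Scaled by library size alone, without TMM, its log2 fold change was -0.31 and that of miR-145 was -0.20. That scaling also moved the median of all entries, from 0.15 to 0.73, since a scaling shifts all entries by nearly the same amount. Under it the exact two-sided permutation test no longer separated LL from LH for miR-143 (p = 0.2). With DESeq2 miR-143 was called lower in LL (log2 fold change -0.94, adjusted p = 0.00453), among 30 entries called. Over all alternatives tried for this result the adjusted p ran from 0.00453 to 0.770, and with parity in the model the log2 fold changes were -1.71 for miR-143 (SE 0.460, adjusted p = 0.283 by edgeR) and -1.81 for miR-145 (SE 0.694, adjusted p = 0.325 by edgeR).

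In the follicular phase neither member differed between fecundity groups by more than the spread between sows. miR-143 had a log2 fold change of -0.49 in FL over FH (SE 0.394, edgeR adjusted p = 0.722 over 307 entries), and 2 of 4 FL sows lay below all FH sows. miR-145 had a log2 fold change of 0.33 (SE 0.433, edgeR adjusted p = 0.807), with 1 FL sow above and 1 below all FH sows. edgeR called 2 of 307 entries in this comparison (0.651%). The exact two-sided permutation tests of the levels gave p = 0.286 for miR-143 and p = 0.486 for miR-145. Without FH2 the estimates were -0.13 and 0.77. With the share of clean reads as a covariate they were -0.09 and 0.02. With parity as a covariate they were 0.18 (SE 0.466) and 0.53 (SE 0.718), with a wider SE for both.

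Averaged over the phases, miR-143 had a log2 fold change of -0.71 in low over high fecundity (SE 0.197, edgeR adjusted p = 0.188), and miR-145 one of -0.21 (SE 0.284, edgeR adjusted p = 0.799). With parity in the model these were -0.50 (SE 0.312) and -0.43 (SE 0.499). edgeR called 0 of 445 entries by adjusted p (0%), 78 had an unadjusted P under 0.05 (17.5%), and DESeq2 called 52, with miR-143 among them (log2 fold change -0.75, adjusted p = 0.0297). Whether the fecundity difference itself depended on the phase was tested as an interaction, that is, FL over FH minus LL over LH. The interaction was 0.49 for miR-143 (SE 0.392, edgeR adjusted p = 0.660) and 1.27 for miR-145 (SE 0.570, edgeR adjusted p = 0.338). No entry of 445 passed by edgeR's adjusted p (0 called, 0%), 63 had an unadjusted P under 0.05 (14.2%), and DESeq2 called 58. By the threshold of the study 59 entries were called (13.3%), with miR-145 among them and miR-143 not. That call of miR-145 was lost with DESeq2, with every other scaling of the libraries and with parity in the model.

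Since the members are made from a shared transcript, their ratio within a library was compared as well, which needs no scaling between libraries. The LH libraries held 7.5, 12.59, 7.664 and 9.221 counts of miR-145 per 100 of miR-143, in the order LH1 to LH4. The LL libraries held 9.93, 6.812, 11.55 and 10.9, and the FH libraries 10.99, 12.4, 8.403 and 15.43. The FL libraries held 7.243 (FL1), 35.49 (FL2), 27.99 (FL3) and 25.22 (FL4). FL2, FL3 and FL4 thus stood above the other 13 libraries, whose highest was 15.43, while FL1 lay among the luteal sows.

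The mean log2 ratio of miR-145 to miR-143 was -3.47 ± 0.346 in LH and -3.38 ± 0.343 in LL (SD, n = 4 each). It was -3.12 ± 0.366 in FH and -2.28 ± 1.03 in FL. FL exceeded LL by 1.10 on this scale, a 2.15-fold difference, and the exact two-sided permutation test did not separate them (p = 0.114). FL exceeded FH by 0.84 (p = 0.171, exact permutation test), and FH exceeded LH by 0.35 (p = 0.257, exact permutation test). LL exceeded LH by 0.09 (p = 0.771, exact permutation test). Over all sows the follicular ratio was 1.66-fold the luteal one (log2 difference 0.73, SE 0.319, exact two-sided permutation test, p = 0.0421), which did not hold after adjustment over the 6 ratio comparisons (adjusted p = 0.253). The low over high fecundity difference was 0.46 (p = 0.206, exact permutation test). The dependence of the fecundity difference on phase was 0.75 (p = 0.244, exact permutation test of fecundity labels within each phase, a test chosen after the ratios were seen).

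**Figure D4:**
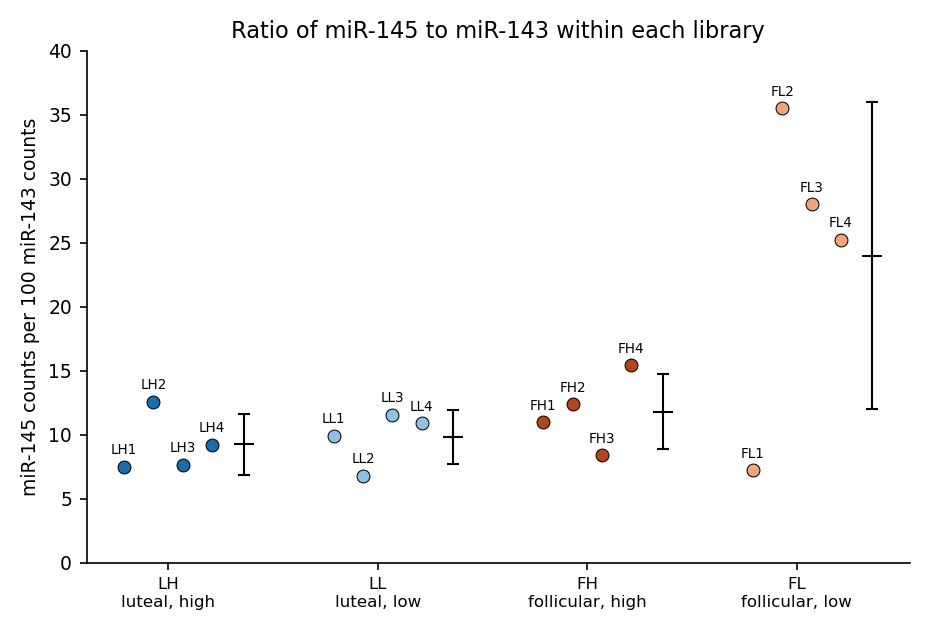
Counts of miR-145 per 100 counts of miR-143 in each library (y axis, linear from 0), with 1 labelled point per sow in the 4 groups on the x axis and bars for the mean ± SD (n = 4). FL2, FL3 and FL4 lie at 25.22 to 35.49, while FL1 and the sows of the other groups lie between 6.812 and 15.43.

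The wide spread of the ratio in FL rested on FL1, whose miR-145 was the lowest of the FL sows and whose miR-143 was close to the highest. Without FL1 the log2 ratio in FL exceeded that in LL by 1.61 and that in FH by 1.34, and without FL2 by 0.84 and 0.58. The FL libraries also differed from each other in miRNAs of other tissues. miR-122, which is made almost only in liver, measured 30.11 CPM in FL1, 1363 in FL2, 276.9 in FL3 and 113 in FL4. The summed level of 5 epithelial miRNAs was 157.2 CPM in FL1, 7510 in FL2, 179.7 in FL3 and 16083 in FL4, and that of 5 striated muscle miRNAs was 3034, 564.6, 2288 and 865.5 CPM. FL1 was thus lowest for miR-122 and the epithelial list, whereas FL3 was near FL1 for the epithelial list with a high ratio. The part of these miRNAs in the ratio was not tested.

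The 165 other known miRNAs with at least 10 counts in every library were compared with each member by Pearson's r of log2(CPM + 1) over the 16 libraries. These correlations are a description, since the libraries share their phase, scaling and depth with both partners. The 5 most like miR-143 were miR-133a-5p (r = 0.929), miR-133b (0.904), miR-206 (0.895), miR-100 (0.891) and miR-23a (0.876). The first 3 of these are miRNAs known from striated muscle. The 5 most like miR-145 were miR-181c (0.963), miR-133b (0.932), miR-29b (0.918), miR-133a-5p (0.884) and miR-186 (0.875). miR-29b, known for targeting collagen messenger RNAs, rose from 105.9 ± 10.91 CPM in LL to 428.2 ± 107.0 in FL (adjusted p = 0.00188 by edgeR). The members themselves were less alike than that (r = 0.780, 0.353 within groups), miR-145 ranking 9 for miR-143 and miR-143 ranking 22 for miR-145.

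The group mean of miR-143 was lowest in LL and that of miR-145 highest in FL. The miRNAs that ran most against the members were picked by low r, which favours the opposite extreme in those groups. For miR-143 they were miR-7137-5p (r = -0.911), miR-1343 (-0.884) and miR-500 (-0.859), each highest in LL, at 15.57 ± 3.295, 103.7 ± 29.57 and 157.5 ± 27.52 CPM. For miR-145 they were miR-532-5p (-0.895), miR-32 (-0.888) and miR-148b-5p (-0.869), each lowest in FL, at 611.6 ± 108.0, 46.21 ± 19.29 and 789.9 ± 208.2 CPM. Within groups these 6 correlations were weaker, from -0.451 to -0.733.

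The name of the cluster as a smooth muscle pair was set beside 15 other miRNAs known for roles in the smooth muscle phenotype. All 15 were measured and tested, and in the follicular over luteal comparison 3 rose, 4 fell and 8 did not pass. Their median log2 fold change was 0.65, against -0.17 over all 445 entries, of which 8.54% were called higher and 8.99% lower. The 8 that did not pass include miR-24-1-5p and miR-24-2-5p, which repeat each other (0.31 each). miR-100 rose 1.14 on the log2 scale, from 7237 ± 1774 CPM in LH and 3095 ± 1295 CPM for LL to 10633 ± 1929 CPM for FH and 10232 ± 1684 CPM for FL (SD, n = 4, edgeR adjusted p = 0.00222). miR-133a-5p rose by 2.13 (edgeR adjusted p = 0.00265) and miR-10a-5p, a HOX-locus miRNA, by 2.0 (edgeR adjusted p = 0.0273). The 4 that fell were miR-21 (-1.94, edgeR adjusted p = 0.00295), miR-222 (-1.41, edgeR adjusted p = 0.0193) and both arms of miR-221, which have identical counts (-1.06, edgeR adjusted p = 0.0377). miR-21, miR-221 and miR-222 are known for driving proliferation of smooth muscle cells. miR-1, a contractile muscle miRNA, had a log2 fold change of 0.68 that did not pass (edgeR adjusted p = 0.244).

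miR-21, which held the top rank in most luteal sows, fell in the follicular phase as the members rose. It measured 153926 ± 117734 CPM for LH and 181579 ± 26785 CPM for LL (SD, n = 4), against 52174 ± 27976 CPM for FH and 36407 ± 6882 CPM for FL. LH2, at 29900 CPM, lay among the follicular sows. The summed level of the 15 miRNAs of the smooth muscle list was 147534 to 371062 CPM for LH and 198272 to 262039 CPM for LL. It was 151010 to 182956 CPM for FH and 83154 to 203026 CPM for FL. Most of this sum was miR-21 and miR-26a, the latter with means of 62078 (LH), 28789 (LL), 88046 (FH) and 74716 CPM (FL). Both entries of miR-24 and of miR-221 enter it. Follicular over luteal, estimates were above 0 for 10 of the 15 entries, so the sum does not stand for the list.

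Between the luteal fecundity groups the smooth muscle list was split. By adjusted p 1 of 15 was called, miR-1, which fell by 2.24 on the log2 scale from 2220 ± 363.1 in LH to 468.1 ± 212.1 CPM in LL (edgeR adjusted p = 0.0413 over 362 entries). By the threshold of the study 6 were called, all lower in LL: miR-1, miR-10a-5p, miR-26a, miR-100, miR-195 and miR-204, with log2 fold changes from -3.21 to -1.11. The -3.21 was that of miR-10a-5p, which varied widely in LH (2614 ± 3613 CPM, from 426.6 to 7978). It overlapped LL, at 138.0 to 435.1 CPM. Over all 362 entries 13% passed that threshold and 0.829% the adjusted p. Estimates were above 0 for 8 of 15, and the median was 0.30 against 0.15 over all entries. The 8 count miR-24-1-5p and miR-24-2-5p (0.47 each) and both arms of miR-221 (0.80 each), which repeat each other. With each such pair taken once, most estimates and the median were below 0. In FL over FH none of the 15 was called by either threshold, where edgeR called 2 of 307 entries by adjusted p and 19 passed the threshold of the study (6.19%).

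Markers of other cells that could carry the members were measured the same way. Of 10 fibroblast or stromal miRNAs 9 were tested, and follicular over luteal 3 rose (miR-29b by 1.38, miR-100 by 1.14 and miR-214 by 0.89 on the log2 scale), none fell, and all 9 estimates were above 0 with a median of 0.75. Over all 445 entries 8.54% were called higher and 8.99% lower. Among the 9 are miR-199a-5p and miR-199b-5p, whose counts are almost identical (40453 ± 15600 and 40430 ± 15591 CPM for LH, SD, n = 4), so that they enter the count and the sum as 2 entries. The summed level of the 9 was 103978 to 198045 CPM for LH and 43886 to 131400 CPM for LL, against 133191 to 215038 CPM for FH and 78574 to 185377 CPM for FL. Of 6 striated muscle miRNAs 5 were tested, and miR-133a-5p, miR-133b (2.59, edgeR adjusted p = 0.00265) and miR-206 (1.50, edgeR adjusted p = 0.0376) rose while miR-499-5p, encoded within a slow myosin gene, fell by 0.94 (edgeR adjusted p = 0.0146). The summed striated level was 2155 to 3254 CPM for LH and 449.2 to 983.7 CPM for LL, against 1883 to 4256 CPM for FH and 564.6 to 3034 CPM for FL. miR-133b reached at most 106.6 CPM in a sow and miR-206 averaged at most 18.66 ± 8.018 CPM in a group. The part of stromal and muscle tissue in the phase difference of the members was not tested.

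**Figure D5:**
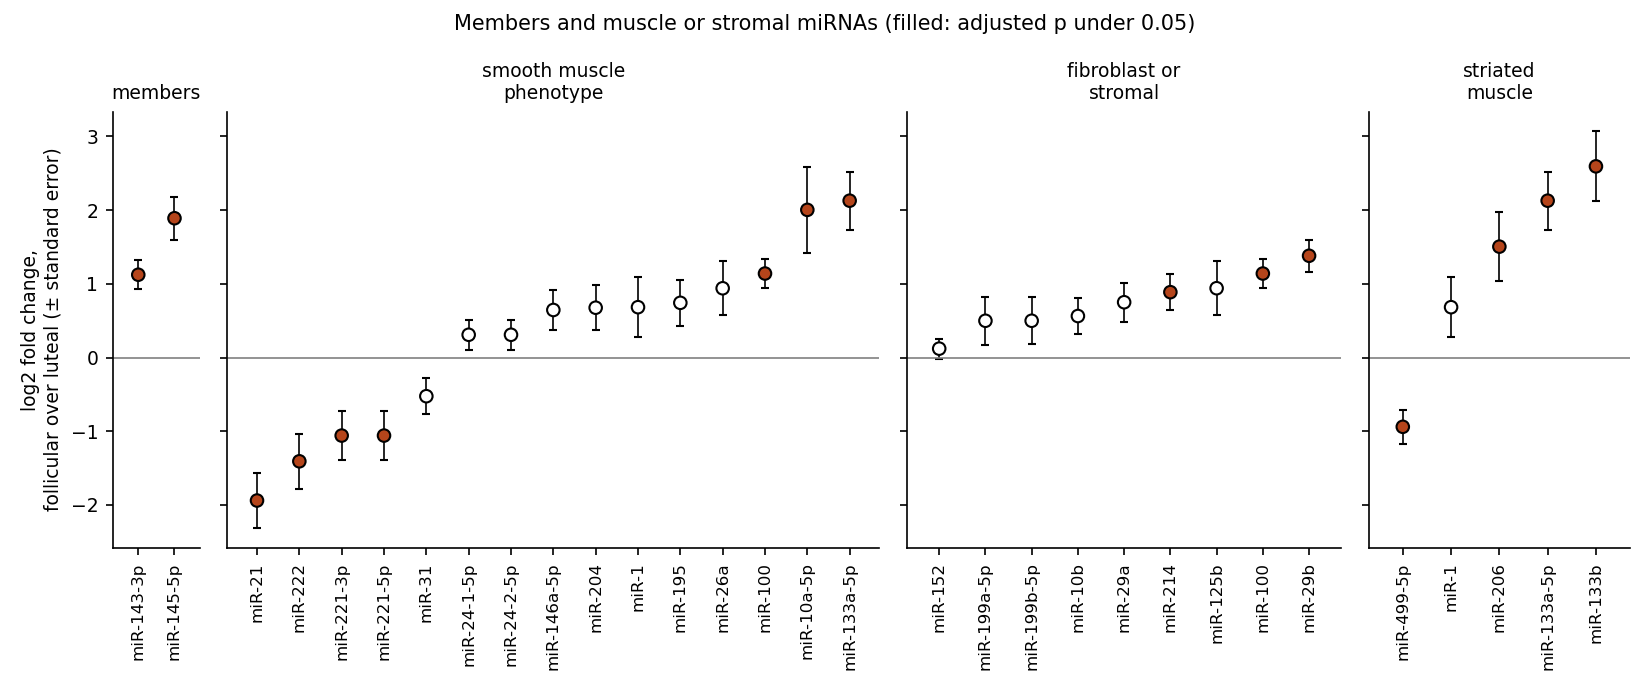
Log2 fold change of follicular over luteal ovaries, mean of both fecundity groups (y axis, points), ± SE (bars) for the members and for the tested miRNAs of the smooth muscle, fibroblast or stromal and striated muscle lists (x axis, a miRNA of several lists is shown in each). Filled points have an adjusted p under 0.05: both members, 3 higher and 4 lower in the smooth muscle list, 3 higher in the stromal list, and 3 higher and 1 lower in the striated list.

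The labelled tissue and the remaining cell types were checked in the same fit. miR-202-5p, a miRNA of the gonads, was present in every sow, from 64.48 to 3843 CPM, and fell by 2.02 on the log2 scale in the follicular phase (edgeR adjusted p = 0.00824). miR-126-5p, the endothelial marker, had a log2 fold change of -0.87 (SE 0.310, edgeR adjusted p = 0.0665), with 7751 to 22206 CPM for LH and 15242 to 26360 CPM for LL, against 8134 to 11872 CPM for FH and 2461 to 11048 CPM for FL. In FL over LL, where both members rose, it fell by 1.50 (edgeR adjusted p = 0.0373). In FL over FH its log2 fold change was -0.59, beside -0.49 for miR-143. Among the FL sows it measured 9343 CPM in FL1, 2461 in FL2, 11048 in FL3 and 4381 in FL4, and it was lower in the 2 sows that also had less miR-143. The luteal sows went the other way. In LL over LH the log2 fold change of miR-126-5p was 0.68 (edgeR adjusted p = 0.405), beside -0.94 for miR-143. LH1 had the most miR-126-5p of the LH sows, at 22206 CPM, and the least miR-143, at 103710 CPM. In FL over LL miR-122 was higher with the members (log2 fold change 5.71, SE 1.61, edgeR adjusted p = 0.0343), as was the epithelial miRNA miR-34c (7.65, SE 2.30, edgeR adjusted p = 0.0394), which measured 55.72 CPM in FL1 and 85.08 in FL3 against 7335 in FL2 and 15224 in FL4. The part of these cell types in the differences of the members was not tested.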

How the data were processed

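The members and the lists of miRNAs were chosen with earlier results of these data known. Small RNA libraries were made from the ovaries of 16 sows with the NEBNext small RNA kit. The authors trimmed reads with Trimmomatic, mapped them to Sscrofa10.2 with Bowtie 2 (2.1.0, per the labels) and predicted further miRNAs with miRDeep, and they deposited raw counts per miRNA and library for 216 known and 1724 predicted miRNAs. How a read was assigned to a mature miRNA is not given in the sources used here. The labels also name DESeq2. Of the 1940 entries, 935 share their counts with another entry.

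Counts were tested with the quasi-likelihood test of edgeR 4.0.16 in R 4.3.3, with TMM factors, Benjamini-Hochberg adjustment and a threshold of 0.05, after entries under edgeR's limits (10 counts, total of 15) were filtered out. LH vs. LL and FH vs. FL were fitted on their 8 libraries, and the phase, the mean fecundity difference and the interaction in a model of 4 groups and 16 libraries. Levels are TMM-normalized CPM. Exact permutation tests used log2(CPM + 1), and ratios used the deposited counts. The miRNAs named are the members, the 5 known miRNAs with the highest and the 3 with the lowest correlation with each member, and the entries of the smooth muscle, striated muscle, stromal, endothelial, leukocyte, erythroid, epithelial, granulosa and luteal, and liver lists. The alternatives were DESeq2 1.42.0, scaling by library size or upper quartile or known miRNAs, members left out of the scaling, no or a stricter filter, robust estimation, identical entries collapsed, fits of 8 or 16 libraries, the threshold of the study, a replicate block, parity or the share of clean reads as a covariate (from the study's records), and leaving out each sow. Tests were tried on simulated counts first. No mature sequence is printed.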

Additional observations from a re-analysis of the deposited data

Results flagged for a closer look

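Of 12 groups of 4 sows examined for a sow far from the rest (miR-143, miR-145 and their ratio in each group), 1 held such a sow, and chance gives about 1 in 20 groups. miR-143 measured 395591 CPM in FH2, against 209328 to 229675 CPM in the other FH sows. These levels follow the TMM scaling, and FH2 had the lowest TMM factor of the 16 libraries (0.670). As a share of counts, with identical entries taken once, miR-143 was 36.09% in FH2, 24.53% in FH1 and 19.28% in FH4. The shares were not examined in this way. Without FH2 the follicular over luteal log2 fold changes were 1.01 for miR-143 and 1.72 for miR-145, and both kept their calls by edgeR's adjusted p.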

How the results depend on the processing

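Of 250 values recomputed under alternatives, 235 kept their direction and their side of the threshold, as did 254 of 256 values recomputed without 1 sow. Values without a test have no threshold. These are the shares of counts and the ratios between 2 groups with 1 sow left out. They counted as kept if they held their direction and moved by less than the SD between sows. The follicular over luteal calls held in every alternative tried, with log2 fold changes of 0.66 to 1.23 for miR-143 and 1.46 to 1.94 for miR-145, and so did those of FL over LL (0.70 to 1.44 and 1.95 to 2.53). DESeq2 called miR-143 in LL over LH (-0.94) and in low over high fecundity (-0.75), and miR-145 in FH over LH (1.34). Without a filter, 1940 entries were tested and edgeR called miR-143 in FH over LH (0.87, adjusted p = 0.0433) and in low over high fecundity (-0.73, adjusted p = 0.00857). The threshold of the study called miR-145 in FH over LH (1.25) and in the interaction (1.27). Parity as a covariate reversed miR-143 in FL over FH to 0.18, and library size alone reversed miR-145 in low over high fecundity to 0.29, neither a call before or after. Parity moved miR-145 in LL over LH to -1.81, and the share of clean reads moved FL over FH to -0.09 for miR-143 and 0.02 for miR-145, without a call. With library size alone the exact permutation tests of the levels lost miR-143 in LL over LH (-0.29, p = 0.2) and in FH over LH (0.62, p = 0.0571) and miR-145 in FH over LH (0.97, p = 0.0571) and in FL over LL (1.81, p = 0.0571), which the shift of the median of all entries accompanied. Leaving out LH1 or LL3 reversed the log2 ratio of miR-145 to miR-143 in LL over LH, which ran from -0.0019 to 0.25, to -0.0019 and -0.00078. Counting identical entries once moved the share of miR-143 to 25.7% in FH and 21.1% in FL from 20.3% and 17.4% of the deposited totals, since fewer entries make up the total. The cause of the other changes was not tested.

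The replicate numbers do not pair the sows, since r of same-numbered libraries ran from -0.19 to 0.373 (median -0.0197, against 0.0119 for other libraries) and 4 of 24 pairs were over 0.1. The replicate block gave follicular over luteal log2 fold changes of 1.13 for miR-143 (adjusted p = 0.00873) and 1.85 for miR-145 (adjusted p = 0.00373) by edgeR and changed no call by adjusted p. With it the interaction of miR-145 (1.13) no longer passed the threshold of the study. This interaction also missed that threshold with DESeq2 (1.16), library size alone (0.97), TMM on known miRNAs (1.15) and upper-quartile factors (1.05). So it did with the members left out of the scaling (1.05), the stricter filter (1.11) and parity (1.22). It passed with no filter (1.23), identical entries collapsed (1.23), robust estimation (1.27) and the share of clean reads (1.24). Of the fits without 1 sow, it passed only without LH1, LL3, LL4, FH2 or FL1.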

Other observations

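Among the other cell types measured beside the members, follicular over luteal, the 6 granulosa and luteal miRNAs had a median log2 fold change of -0.86, with miR-202-5p lower and miR-378 higher by 0.94 (edgeR adjusted p = 0.00448). The 5 epithelial miRNAs were split, with miR-205 higher by 1.83 (edgeR adjusted p = 0.0170) and miR-182 and miR-183 lower, with log2 fold changes of -2.06 and -2.45 (edgeR adjusted p = 0.0183 and 0.0242). Their summed level ran from 145.5 to 21828 CPM in LH and from 157.2 to 16083 CPM in FL, against 276.9 to 300.4 CPM in FH, so a few sows held most of it. Of 4 leukocyte miRNAs 2 passed, where 8.54% of all 445 entries were called higher and 8.99% lower. miR-150 was higher by 1.23 (edgeR adjusted p = 0.0377). miR-142-5p has 0 counts in all 4 LH libraries and in LL2 and FL1, and in FL over LL its log2 fold change was 0.47 (edgeR adjusted p = 0.911). Both erythroid miRNAs, miR-144 and miR-486, and the liver miRNA miR-122 did not pass in this comparison (edgeR adjusted p = 0.604, 0.356 and 0.120), and miR-122 was called in FL over LL (5.71, edgeR adjusted p = 0.0343).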
